A study of Homo sapiens with 33 samples.

Results

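Differentiated SH-SY5Y cells homozygous for the D262V substitution of hnRNPA1 were compared with differentiated wild-type (WT) SH-SY5Y cells, by gene level and by splicing. The comparison takes in 6 of the 33 samples of the series, 3 libraries per genotype, chosen by their labels. SH-SY5Y is a human neuroblastoma line of sympathetic neuronal character. Both groups were grown on the same schedule to day 18, through media with falling serum that held 10 µM retinoic acid. The final medium also carried B-27, 20 mM KCl, 50 ng/mL BDNF and 2 mM dibutyryl cyclic AMP. The only labelled difference between the groups is the genotype. The labels do not say how many clones carry the substitution or whether replicates were separate cultures, so p-values measure the spread between these libraries, which may be technical. An effect of the substitution cannot be told apart from other differences between the cell clones compared. Poly(A) RNA from 1 µg of total RNA was made into libraries with a directional NEBNext Ultra kit. The study asked whether a change in the C-terminal low complexity domain of hnRNPA1 alters splicing of genes linked to amyotrophic lateral sclerosis (ALS).

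The heterogeneous nuclear ribonucleoprotein A1 (hnRNPA1) binds nascent RNA and is best known for opposing the use of nearby splice sites, for shuttling between nucleus and cytoplasm and for joining stress granules. Its low complexity domain carries the weak contacts through which such proteins condense, and substitutions there are linked to ALS and multisystem proteinopathy. In SH-SY5Y cells, retinoic acid acts through nuclear receptors that switch on genes such as CYP26A1, and BDNF acts through the kinase TrkB, and cells so treated extend neurites and express neurofilaments and synaptic genes.

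Each library held 131 to 214 M reads, of which 9.42 to 15.3 M were counted in genes and 92.2% to 92.6% fell in the row for no gene feature. For 3608 of 4269 genes the gene count was lower than the reads over the gene's own most-read junction, so genes were read first by junction reads. These are the reads over all listed splice junctions of a gene, 25 to 40.5 M per library in named genes, given below as CPM, that is, scaled to a common library size after TMM normalization. Gene counts, also as CPM, stand beside them. The kit keeps strand, but the strand setting of the counting is not given, and the gene counts may hold reads of the strand opposite to the gene. Every gene-count value below has this limit, also those that stand alone, as for VIP, EGR1, DUSP6, MKI67 and the heterozygous cells. Junction reads cover the 5067 genes that have a listed splicing event, and a gene's sum can move with its splicing as well as with its level. No file lists the base at the substituted codon, so the genotype labels were not checked by sequence. Of the marker lists, none of the 12 neuronal and 10 noradrenergic markers was at 0 in all 6 libraries. At 0 in all 6 were 5 of 10 immune or blood markers (PTPRC, CD3E, ITGAM, AIF1 and HBB). So were 4 of 10 endothelial or epithelial markers (PECAM1, KDR, CDH1 and KRT5). The 3 immune or blood markers tested by gene counts summed to 7.23 to 10.5 CPM in WT and 6.39 to 13.4 CPM in homozygous libraries. For the 3 endothelial or epithelial markers tested, the sums were 29.8 to 33.0 CPM and 27.0 to 33.8 CPM. In these bulk samples, fewer cells of a kind and less RNA per cell cannot be told apart.

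Gene levels differed widely between the genotypes. By junction reads, 1657 of the 5067 genes tested passed an adjusted p of 0.05 (32.7%), 840 higher (16.6%) and 817 lower (16.1%) in homozygous cells (edgeR quasi-likelihood test, Benjamini-Hochberg). Of these, 98 rose and 111 fell by 2-fold or more. By gene counts, 1024 of 16833 genes passed (6.08%), with 525 higher (3.12%) and 499 lower (2.96%). The counts given for gene lists below are to be read beside these shares. Among the 4499 genes tested by both measures, 139 passed in both with the same sign (3.09%), 81 up (1.8%) and 58 down (1.29%), and 9 passed in both with opposite signs. The median log2 fold change over all genes tested was 0.01 by either measure. With composite splicing events left out of the sums, 701 of 2630 genes passed by junction reads, and with the 6 libraries fitted alone, 1832 genes passed by gene counts. Leaving out 1 library gave 575 to 783 genes by gene counts, fewest without WT replicate 1, and 79 to 112 past both measures with the same sign, fewest without WT replicate 2.

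**Figure D1:**
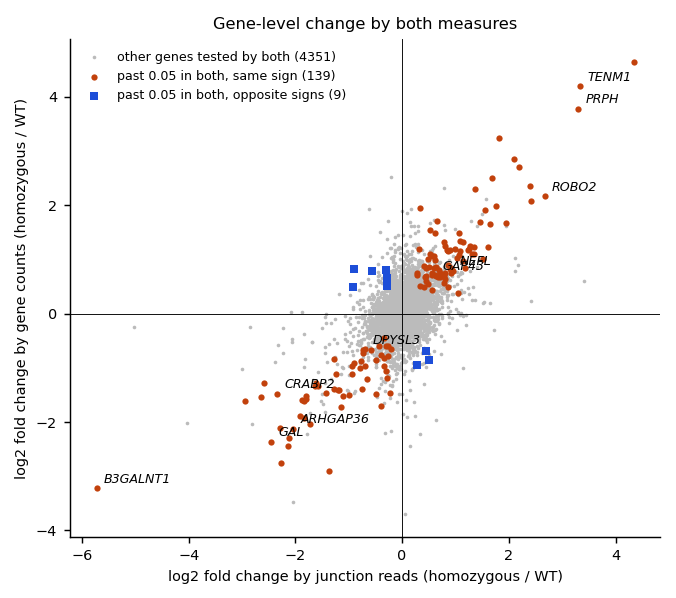
Each point is a gene tested by both measures, with the log2 fold change (homozygous over WT, 3 libraries each) by junction reads on the x axis and by gene counts on the y axis. The 139 genes past 0.05 in both with the same sign lie along the diagonal, with TENM1 and PRPH at the upper right and B3GALNT1 at the lower left, and the 9 with opposite signs lie near the origin.

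Genes past both measures were ranked by the smaller of their 2 changes, among those with a mean log2 CPM over 1 in both. The top rises encode a neuronal filament, an adhesion receptor and several secreted or matrix-binding proteins. PRPH, which encodes peripherin, the intermediate filament of peripheral neurons, stood at 7.88, 10.6 and 7.65 CPM of junction reads in the WT libraries and at 88.2, 89.4 and 83.1 CPM in the homozygous libraries. Its log2 fold change was 3.30 (SE 0.12, adjusted p = 2.9e-23) by junction reads and 3.78 (SE 0.30, adjusted p = 3.9e-10) by gene counts. TENM1, a teneurin that joins neurons across synapses, stood at 2.34, 1.94 and 3.45 CPM in WT and 25.1, 26.5 and 25.8 CPM in homozygous libraries. All homozygous libraries lay far above all WT libraries for both genes, and TENM1 rose by 3.34 (SE 0.18) by junction reads and 4.19 (SE 0.30) by gene counts on the log2 scale.

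IGFBP5, a secreted binder of insulin-like growth factors, went from 10.5, 12.5 and 13.8 CPM to 55.5, 52.7 and 86.1 CPM. BMP7, a bone morphogenetic protein that signals to sympathetic neurons, went from 9.15, 10.5 and 9.08 CPM to 49.8, 50.7 and 53.6 CPM. ROBO2, a receptor for the axon repellent Slit, went from 5.46, 2.33 and 3.15 CPM to 23.3, 22.2 and 22.8 CPM. In none of the 3 did the groups overlap, and their log2 fold changes by junction reads were 2.40, 2.42 and 2.67. The other genes of the 12 top rises by this rank were FAM78B (2.18), PMP22, a myelin protein (1.95), CCDC80 (1.75), the proteoglycans SPOCK1 (1.69) and SDC2 (1.36), NTNG2, a membrane-anchored netrin (1.64), and SORBS2, an actin-linked adaptor (1.55). When 1 library was left out, the gene-count call of ROBO2 passed in 1 of 6 fits (adjusted p 0.020 to 0.14), that of BMP7 in 4 of 6 (0.0084 to 0.077) and that of SPOCK1 in 5 of 6 (0.0033 to 0.062). CGNL1, a cell junction protein named here after its values were seen, and the collagen gene COL5A1 had large folds too (log2 4.34 and 2.10 by junction reads) but mean gene-count levels under the limit of the rank.

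Among the top falls by the same rank were a neuropeptide, a glycosyltransferase and regulators of signalling. B3GALNT1, which adds N-acetylgalactosamine to glycolipids, stood at 208, 212 and 243 CPM of junction reads in WT libraries and at 4.75, 3.44 and 4.26 CPM in homozygous libraries. It fell by 5.73 on the log2 scale (SE 0.12, adjusted p = 1.1e-31), and by 3.22 (SE 0.53) by gene counts. GAL, the precursor of the neuropeptide galanin, stood at 10469, 11415 and 9397 CPM in WT and 1946, 1746 and 1996 CPM in homozygous libraries. Neither gene's groups overlapped, and GAL fell by 2.46 (SE 0.09, adjusted p = 4.6e-24) by junction reads and 2.37 (SE 0.19) by gene counts. ARHGAP36, an inhibitor of protein kinase A, went from 1254, 1255 and 1278 CPM to 303, 296 and 319 CPM, a fall of 2.04 by junction reads and 2.13 by gene counts. INHBA, an activin subunit, went from 627, 623 and 668 CPM to 190, 139 and 193 CPM.

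The remaining top falls by the smaller of the 2 changes were NPTX2, a secreted pentraxin that gathers glutamate receptors (log2 fold change -2.27), PTGER2, a prostaglandin receptor (-2.13), GRM7, a metabotropic glutamate receptor (-2.28), MAOB, which degrades amines (-1.91), DNER, a Notch ligand (-1.85), SEL1L3 (-1.84), EMILIN2 (-2.95) and the matrix proteoglycan VCAN (-1.79). Their values come from junction reads, and each passed by gene counts too. GDF15 and CRABP2, described below, fell by more than most of these in junction reads and by less in gene counts. The gene-count calls depended on single libraries for EMILIN2 (1 of 6 fits with a library left out passed, adjusted p 0.0084 to 0.12), GRM7 (2 of 6, 0.019 to 0.10), MAOB (3 of 6, 0.0058 to 0.11), SEL1L3 (4 of 6, 0.016 to 0.15) and DNER (5 of 6, 0.012 to 0.058). Of the 9 genes with opposite signs, the rule named ITGA9-AS1 (-0.56 by junction reads, 0.78 by gene counts), MROH8 (-0.91, 0.48), MST1 (-0.90, 0.83) and TMEM63C (0.51, -0.85), and no direction is given for these.

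**Figure D2:**
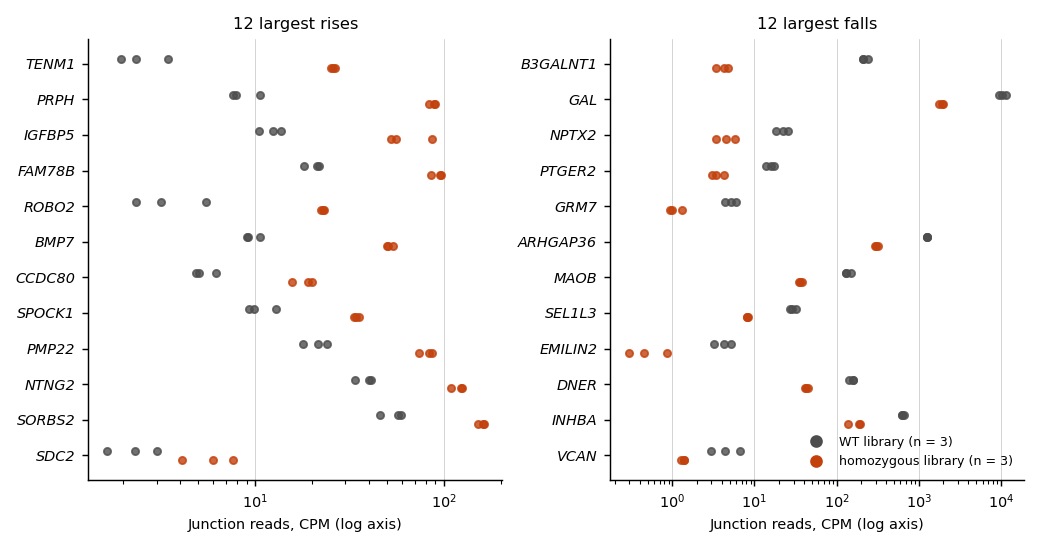
Junction reads in CPM (x axis, log scale) of the 12 top rises and 12 top falls, with a point for each of the 3 WT (gray) and 3 homozygous (orange) libraries. The groups are apart in each gene shown, most widely in TENM1, PRPH and B3GALNT1.

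The heterozygous D262V cells were set against the same WT libraries, so their gene-count values are given only side by side with the homozygous ones. PRPH had a log2 fold change of 3.78 in homozygous and 3.58 in heterozygous cells, and GAL of -2.37 and -3.02. For TENM1 the values were 4.19 and 0.20, for ROBO2 2.17 and -0.60, and for BMP7 2.07 and -1.86. ARHGAP36 had -2.13 in homozygous and -4.22 in heterozygous cells.

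Neurofilament genes rose with peripherin. NEFL, the light neurofilament chain, stood at 571, 575 and 607 CPM of junction reads in WT and 1119, 1202 and 1060 CPM in homozygous libraries. NEFM, the medium chain, stood at 451, 436 and 494 CPM and at 744, 814 and 816 CPM. The groups did not overlap, with log2 fold changes of 0.95 (SE 0.08) and 0.78 (SE 0.08) by junction reads and 0.79 and 0.57 by gene counts. NEFM's gene-count call passed in 2 of 6 fits with a library left out (adjusted p 0.00095 to 0.14). Of 6 intermediate filament genes tested by junction reads, these 3 rose and NES, the nestin of neural progenitors, fell (-0.43), with a list median of 0.39.

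Of 24 growth cone and microtubule genes tested by junction reads, 9 rose and 3 fell (median 0.17), and of 35 tested by gene counts, 4 rose and 3, DPYSL3, CRMP1 and BASP1, fell (median 0.23). GAP43, a growth cone membrane protein, went from 4141, 3639 and 3440 CPM to 5589, 5810 and 5856 CPM, and DPYSL3, a collapsin response mediator, went from 3737, 3732 and 4131 CPM to 2343, 2482 and 2337 CPM. The groups were apart in both, and both changes passed by gene counts (0.70 and -0.66 on the log2 scale). ANK2, an axonal ankyrin, rose by 0.41 and by 0.88 in gene counts. MAP2, the dendritic microtubule protein, rose by 0.72 by junction reads and 0.67 by gene counts, but its most-read junction alone gave 0.44 (adjusted p = 0.59), and its gene-count call passed in 1 of 6 fits with a library left out (0.0086 to 0.35). Among motor genes, 6 of 28 kinesin, dynein and dynactin genes rose and 5 fell (median 0.00), near the 16.6% and 16.1% over all genes. DYNLT3, a dynein light chain, went from 46.6, 46.9 and 51.7 CPM to 22.7, 20.0 and 22.5 CPM, and KIF5A, an ALS-linked axonal kinesin, rose by 0.52.

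Actin and tropomyosin genes split, with 5 of 23 up and 6 down by junction reads and 0 past the test by gene counts. TPM1 rose by 0.72 and TPM2 fell by 0.92 on the log2 scale. TPM1 went from 72.6, 66.8 and 72.5 CPM to 113, 121 and 114 CPM, and TPM2 from 303, 320 and 254 CPM to 169, 145 and 150 CPM. Both are tropomyosins that wrap actin filaments, and neither gene's groups overlapped. MYO5A, a vesicle motor, rose by 1.05 in summed junction reads, whereas its most-read junction gave -0.58 (adjusted p = 0.53).

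Retinoic acid was an ingredient of every differentiation medium used. Of 13 genes that handle retinoic acid or respond to it and were tested by junction reads, 7 fell and 2 rose (median -0.28). CRABP2, the carrier that delivers retinoic acid to its nuclear receptors, stood at 24143, 24883 and 20015 CPM in WT and 4985, 4350 and 4337 CPM in homozygous libraries. CYP26A1, the enzyme that clears retinoic acid and is itself induced by it, stood at 166, 189 and 174 CPM and at 96.2, 86.0 and 94.9 CPM. All WT libraries lay above all homozygous libraries in both. CRABP2 fell by 2.34 (SE 0.09, adjusted p = 3.7e-23) and CYP26A1 by 0.93 (SE 0.09, adjusted p = 2.4e-11), and gene counts gave -1.48 and -1.12. The 2 listed genes past the test upward were RXRA, a retinoid receptor partner (1.39), and DLG2 (0.32), while the genes that fell also included DHRS3, a retinal reductase (-0.70), RARA, the retinoic acid receptor (-0.38), MEIS2 (-0.28) and NAV2 (-0.63). CRABP2 also had a changed splicing event, in which a junction went from 69.8% to 47.1% use. By gene counts 1 of 19 rose, MEIS1, and 2 fell, CRABP2 and CYP26A1, with a list median of 0.07.

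The 250 bases before the start of CRABP2 and before the downstream of the CYP26A1 starts are shown because these genes fell together. In them a single spelling of a regulatory repeat of retinoic acid receptors was looked for. Both come from RefSeq (GRCh38.p14), on the strand of the gene, and capitals mark the repeat, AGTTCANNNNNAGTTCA, searched on both strands, read here on the opposite strand.
CYP26A1, chr10:93073643-93073892, plus strand: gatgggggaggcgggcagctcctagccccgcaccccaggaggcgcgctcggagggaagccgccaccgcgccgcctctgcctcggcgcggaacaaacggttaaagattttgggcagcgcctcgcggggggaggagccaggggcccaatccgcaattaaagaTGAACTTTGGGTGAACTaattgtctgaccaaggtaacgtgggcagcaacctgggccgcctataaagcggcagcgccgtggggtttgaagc
CRABP2, chr1:156705785-156706034, minus strand: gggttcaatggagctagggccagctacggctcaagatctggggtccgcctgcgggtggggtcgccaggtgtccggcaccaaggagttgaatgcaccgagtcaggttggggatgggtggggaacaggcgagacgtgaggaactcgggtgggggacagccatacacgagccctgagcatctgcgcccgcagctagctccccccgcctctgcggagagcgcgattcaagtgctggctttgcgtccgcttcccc
The repeat begins 90 bases before the CYP26A1 start, at -90, and these letters are not in the CRABP2 window. They occur in 3 of 35116 promoter windows of this length (0.00854%), and of the 24 listed retinoic acid genes with a window only CYP26A1 holds them. Other spellings of the repeat were not searched. The match in CYP26A1, its rarity and its absence from CRABP2 therefore depend on the spelling chosen and are no result about these genes. A match of letters is a description of the sequence and not a measured site.

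Noradrenergic genes moved in both directions. Of 9 tested by junction reads, 5 rose and 4 fell (median 0.43). DDC, the decarboxylase that makes dopamine, went from 1937, 1871 and 1861 CPM to 3308, 3405 and 3166 CPM, and CHGB, a granin of secretory granules, from 2489, 2457 and 2592 CPM to 3930, 3647 and 4060 CPM. SLC6A2, the noradrenaline transporter, went from 34.4, 45.7 and 44.3 CPM to 13.8, 10.6 and 11.1 CPM. The groups were apart in all 3, at log2 fold changes of 0.80, 0.63 and -1.81. DBH, which makes noradrenaline, rose by 0.43 and the transcription factor GATA2 by 0.60, and the factor ISL1 fell by 0.26. By gene counts DDC and CHGB passed upward and SLC6A2, GAL, VIP, CHRNA3 and TBX2 downward. DDC's gene-count call passed in 0 of 6 fits with a library left out (adjusted p 0.067 to 0.18).

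Neuropeptides other than CHGB fell where they passed the test. By junction reads GAL, VGF (-0.32) and SCG2 (-0.22) fell among 5 tested, although SCG2 passed in only 2 of 6 fits with a library left out (adjusted p 0.039 to 0.17). By gene counts GAL, VIP, CALCA and CALCB fell among 13 tested. VIP, vasoactive intestinal peptide, stood at 37.0, 37.5 and 28.7 CPM of gene counts in WT and 10.3, 9.79 and 8.48 CPM in homozygous libraries, a fall of 1.85 (SE 0.21, adjusted p = 3.8e-07).

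Adhesion genes passed mostly upward. Of 20 teneurin and adhesion genes tested by junction reads, 11 rose and ALCAM alone fell (median 0.29). ADGRL2, a latrophilin that binds teneurins, went from 77.9, 83.0 and 93.8 CPM to 133, 124 and 134 CPM, and TENM3 from 36.5, 35.8 and 43.2 CPM to 58.3, 50.5 and 56.7 CPM. Both passed by gene counts (1.00 and 1.11), ADGRL2 in 5 of 6 fits with a library left out (adjusted p 0.0064 to 0.064). CNTN1, an axonal contactin, rose by 1.03 in summed reads, but its most-read junction gave -0.42 (adjusted p = 0.55). By gene counts 4 of 29 rose and 0 fell, with a list median of -0.07.

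Among axon guidance genes, 5 of 15 rose and 3 fell by junction reads (median -0.05), beside 16.6% and 16.1% over all genes. SLIT1, a secreted repellent that ROBO2 binds, went from 14.3, 11.5 and 14.1 CPM to 35.8, 39.3 and 38.0 CPM. SEMA3C, a secreted semaphorin, went from 47.4, 59.0 and 58.0 CPM to 21.6, 20.4 and 25.5 CPM, and PLXNA4, a semaphorin receptor, fell by 1.68. SLIT1's gene-count value of 1.01 passed in 0 of 6 fits with a library left out (adjusted p 0.058 to 0.19).

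Of 25 synaptic genes, 9 rose and 5 fell by junction reads (median 0.11), beside 16.6% and 16.1% over all genes. SYT4, a synaptotagmin of dense-core vesicles, went from 194, 209 and 246 CPM to 363, 347 and 344 CPM, and SNAP91, a clathrin assembly protein, from 224, 224 and 247 CPM to 334, 333 and 308 CPM. The groups were apart in both, and both passed by gene counts (0.80 and 1.00), SNAP91 in 3 of 6 fits with a library left out (adjusted p 0.038 to 0.15). Among 14 voltage-gated channel genes, 3 rose and 4 fell, beside the same shares over all genes. CACNA1C, an L-type calcium channel, went from 11.1, 11.3 and 11 CPM to 19.4, 23.3 and 18.4 CPM (gene-count call in 1 of 6 fits with a library left out), and CACNA1E, an R-type channel, fell by 1.13.

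Immediate early and ERK feedback genes, which follow recent growth factor and activity signals, were tested mainly by gene counts, where 5 of 28 fell and DUSP4 rose (median -0.30). The 5 were EGR1, EGR3, IER2, DUSP6 and SPRY1, named after their values were seen. EGR1, a transcription factor, stood at 7.07, 8.89 and 7.33 CPM of gene counts in WT and 1.27, 1.65 and 3.61 CPM in homozygous libraries, and DUSP6, an ERK phosphatase, at 119, 115 and 126 CPM and at 55.6, 57.9 and 53.2 CPM. Neither gene's groups overlapped, with log2 fold changes of -1.81 (SE 0.40, adjusted p = 0.0043) and -1.11 (SE 0.13, adjusted p = 4.9e-07). By junction reads 1 of 7 rose and 3 fell, among them NR4A1, an activity-induced nuclear receptor (-0.84). In heterozygous cells, which share the WT libraries, the gene-count values were -1.32 for EGR1 and 0.86 for DUSP6.

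The level of the mutated gene itself differed little between the groups. HNRNPA1 stood at 8556, 8259 and 7617 CPM of junction reads in WT and 7311, 6791 and 7119 CPM in homozygous libraries (log2 fold change -0.20, adjusted p = 0.040), and gene counts gave 0.31 (adjusted p = 0.38). That junction-read call passed in 1 of 6 fits with a library left out (adjusted p 0.0084 to 0.17). Of the 6 hnRNP A/B and D genes tested, HNRNPA1, HNRNPA2B1 (-0.20), HNRNPAB (-0.39) and HNRNPD (-0.23) passed downward, and 0 of 7 passed by gene counts. HNRNPA2B1 passed in 1 of 6 (0.014 to 0.21) and HNRNPD in 2 of 6 (0.0047 to 0.14) such fits, and HNRNPAB in all. Of 10 other hnRNP genes, HNRNPH1, HNRNPH3 and RALY (-0.37) fell, the first 2 in 3 of 6 (0.0025 to 0.17) and 2 of 6 (0.011 to 0.21) fits with a library left out.

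Stress granule genes passed upward only, 7 of 15 by junction reads (median 0.20). CAPRIN1, a partner of G3BP1, went from 160, 160 and 177 CPM to 215, 218 and 235 CPM, G3BP2 rose by 0.36 and PUM2, a translational repressor, by 0.43. Only PABPC1, the poly(A)-binding protein, passed by gene counts as well (0.59 by junction reads and 0.85 by gene counts). Gene counts gave CAPRIN1 -0.11 (adjusted p = 0.87). ALS and frontotemporal dementia genes were mixed, with C9orf72, OPTN, KIF5A and PRPH among those past the test upward and HNRNPA1 and HNRNPA2B1 among those downward. Splicing factor lists were short, and no difference is claimed from the 32.7% of all genes that passed by junction reads. Among 12 SR and core spliceosome genes, RBM39 passed upward (in 2 of 6 fits with a library left out, adjusted p 0.0094 to 0.070) and SNRNP70 (-0.36) and SNRPB (-0.50) fell. Of 10 neural splicing regulators, CELF4 rose by 1.13 and CELF3 fell by 0.44, a value that became 0.16 without composite events. Among genes of nonsense-mediated decay and the exon junction complex, SMG6 (-0.31) and MAGOHB (-0.57) fell.

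Cell cycle genes passed upward only, 6 of 9 tested by junction reads out of 34 listed (median 0.44). Among them were FOXM1, a mitotic transcription factor (0.74), and AURKA (0.74). By gene counts 2 of 25 passed, MKI67 and TYMS. Of the 6 cell cycle genes tested by both measures, 0 passed in both. AURKA's most-read junction gave 0.46 (adjusted p = 0.10), and MKI67, the proliferation marker, stood at 2.77, 1.62 and 1.29 CPM of gene counts in WT and 6.70, 5.36 and 3.61 CPM in homozygous libraries. Among sterol and fatty acid genes, those that rose included SCD, a fatty acid desaturase (0.45), and STARD4, a sterol carrier, fell (-0.49). Of 8 p53 targets, GDF15 and BAX fell. GDF15, a stress-induced cytokine, went from 186, 225 and 180 CPM to 33.9, 30.9 and 29.8 CPM (-2.64), and BAX, a pro-apoptotic protein, from 1405, 1160 and 915 CPM to 653, 621 and 719 CPM (-0.80). TP53I3 passed in both measures with opposite signs (-0.30 by junction reads and 0.80 by gene counts), so no direction is given for it.

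Of 10 genes of the APP family and secretases, 4 rose, APP, NCSTN, ADAM10 and CLU, and 2 fell, BIN1 and APOE. CLU, clusterin, went from 188, 183 and 155 CPM to 449, 436 and 454 CPM, and APOE, apolipoprotein E, from 325, 308 and 239 CPM to 97.8, 89.9 and 104 CPM. The groups were apart in both, with log2 fold changes of 1.35 (SE 0.08) and -1.58 (SE 0.09), and gene counts gave 1.10 and -1.07, the latter short of the threshold (adjusted p = 0.15). Of 13 subunits of the BAF chromatin remodeler, 4 passed upward, SMARCA2, SMARCC2, PBRM1 and SS18, and 2 fell, ACTL6A and BCL7C. SMARCA2, its ATPase, rose by 0.50 and by 0.87 in gene counts, where it passed in 2 of 6 fits with a library left out (adjusted p 0.015 to 0.098). PBRM1 passed in 4 of 6 such fits (adjusted p 0.0012 to 0.16), and its most-read junction gave -0.098 (adjusted p = 0.58). In the neurotrophin and growth factor list, IGFBP5 and NGFR passed upward and PTN, pleiotrophin, fell by 1.17 by junction reads and dropped by 1.40 by gene counts on the log2 scale (5 of 6 fits with a library left out, adjusted p 0.021 to 0.076). Stress response genes gave 3 of 9 up, ASNS, HERPUD1 and CANX, and GDF15 down, heat shock genes HSPH1 and HSPD1 up of 10 (each in 4 of 6 fits with a library left out, adjusted p up to 0.15 and 0.14), HOX genes HOXC4 (-0.61) and HOXD3 (-0.81) down of 3, and interferon genes IRF9 down of 4 (-0.37). Of the 13 mitochondrially encoded genes, MT-ND2 and MT-CYB passed upward by gene counts.

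Matrix genes that mark mesenchymal or substrate-adherent cells rose by junction reads, 6 of 7 tested out of 38 listed (median 1.39). COL3A1 went from 39.9, 69.3 and 41.5 CPM to 151, 133 and 133 CPM, and COL5A1 from 4.15, 6.4 and 3.45 CPM to 19.3, 20.8 and 20.6 CPM. Both are fibrillar collagens, and their groups did not overlap. COL5A1's gene-count call passed in 2 of 6 fits with a library left out. Over those 7 genes, summed junction levels were 504 to 553 CPM in WT and 790 to 820 CPM in homozygous libraries, while summed gene counts, over the 24 genes of the list tested that way, were 279 to 321 CPM and 296 to 313 CPM. By gene counts SPARC and COL5A1 passed upward and LOX and TIMP1 downward, and PRRX1 and POSTN were at 0 in every library. Schwann and glial markers had 3 of 20 genes tested by junction reads, of which PMP22 and NGFR passed upward (NGFR in 2 of 6 fits with a library left out, adjusted p 0.024 to 0.17), with summed levels of 21.6 to 27.8 CPM and 78.2 to 91.4 CPM. By gene counts that list summed to 43.9 to 53.6 CPM in WT and 56.1 to 62.1 CPM in homozygous libraries, and FABP7, OLIG1, OLIG2, CDH19 and SLC1A3 were at 0 in all 6. The 9 neuronal markers tested by junction reads summed to 9725 to 10442 CPM and 13103 to 13479 CPM. The part of cell makeup in the gene groups above was not tested.

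**Figure D3:**
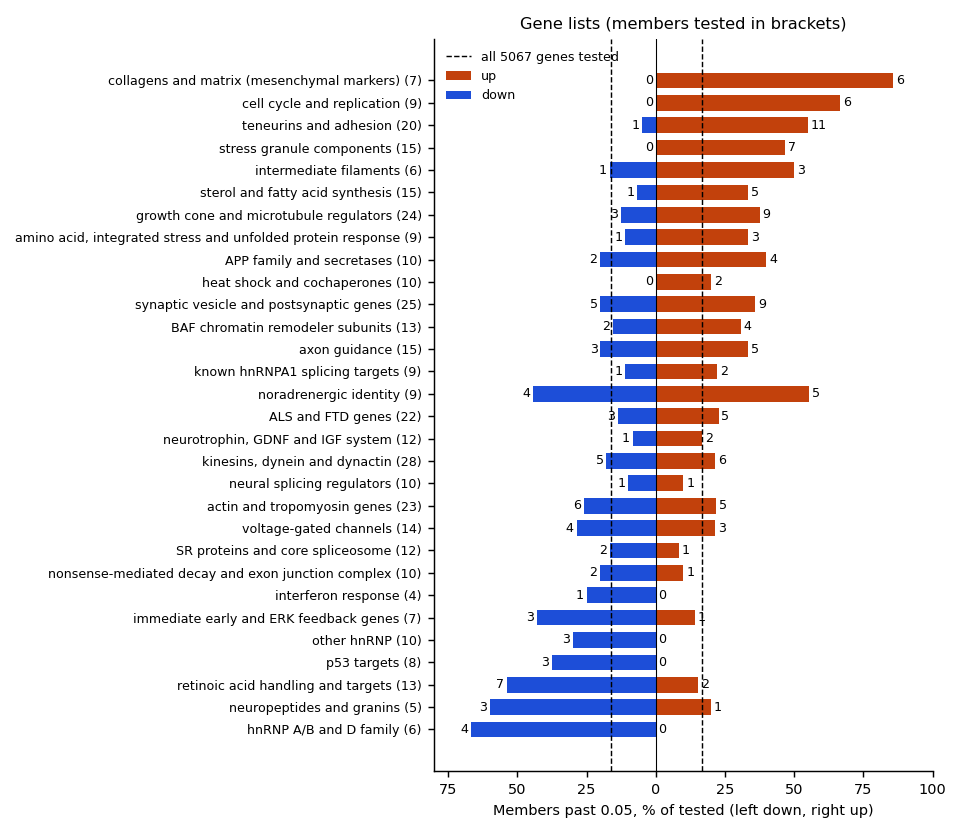
Bars give, for each gene list with at least 4 members tested by junction reads, the percent of tested members past 0.05 downward (left, blue) and upward (right, orange), with the counts at the bar ends and dashed lines at the shares over all 5067 genes, 16.1% down and 16.6% up. Collagens, cell cycle, adhesion and stress granule genes reach far to the right, and hnRNP A/B and D, neuropeptide and retinoic acid genes to the left.

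Splicing differed in every class of event but mutually exclusive exons. The authors' tables list events already selected, since every event listed has an unadjusted p under 0.05 there. An event counted as changed when the authors' deposited adjusted p was under 0.05, the mean usage of a junction moved by at least 10 percentage points, the choice held 20 or more reads in each library, and the groups did not overlap. Usage is the share of a junction among the reads of its splice choice. Alternative 5′ splice sites changed in 90 of 1218 listed events (7.39%), alternative 3′ splice sites in 22 of 1207 (1.82%), cassette exons in 35 of 1007 (3.48%), composite events in 149 of 3778 (3.94%) and retained introns in 65 of 1682 (3.86%). Of 9 mutually exclusive exons, 0 changed (0%), although 9 had an unadjusted p under 0.05 in the authors' deposited table. Replacing the authors' test with limma on the log2 odds of usage left 46, 4, 7, 10 and 71 events of the first 5 classes and 0 mutually exclusive exons. In all, 306 of 5449 genes with a listed event had a changed event (5.62%). With 3 libraries against 3, the smallest p an exact 2-sided permutation test of a single event can give is 0.1.

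The alternative 5′ splice sites that changed were far apart. In 73 of 90 changed events (81.1%) the donors lay 1000 nt or more from each other, against 624 of all 1218 listed (51.2%). The median distance was 6497.5 nt against 1095.5 nt. No test was made of these differences. Donors so far apart can lie in different upstream exons. Whether they reflect different transcript starts rather than a choice between donors was not tested. In SHISA5, whose protein sits in the endoplasmic reticulum, the donor at chr3:48473008 was joined by 2377, 3628 and 2223 reads in WT and 99, 41 and 84 reads in homozygous libraries. The donor at chr3:48479175, joined to the same acceptor, had 792, 1447 and 779 reads and 888, 872 and 934 reads. Usage of the nearer donor thus went from 75%, 71.5% and 74.1% to 10%, 4.49% and 8.25%, while the reads of the farther donor overlapped between groups.

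XRCC4, a factor of DNA end joining, showed the same form. Its junction chr5:83096263-83104908 had 555, 730 and 487 reads in WT and 27, 29 and 64 in homozygous libraries, at 54.2% ± 4.58 and 9.81% ± 3.53 (SD, n = 3) of the choice. RGS8, a regulator of G protein signalling, went from 79.2%, 95.1% and 89.3% to 11.9%, 19% and 13% use of the junction chr1:182672932-182674722, with 42, 77 and 50 reads in WT and 10, 19 and 10 reads in homozygous libraries. EVL, an actin-filament elongation factor, went from 86.3% ± 4.01 to 38.3% ± 9.63 at chr14:99972057-100084685. The groups were apart in all of these, and each kept an adjusted p under 0.05 with limma (0.0062 for SHISA5, 0.019 for XRCC4 and RGS8, 0.022 for EVL).

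TPM1 changed at both ends. Among donors joined to the acceptor after chr15:63056983, the junction from chr15:63044152 had 26, 48 and 26 reads in WT and 421, 367 and 475 reads in homozygous libraries, while that from chr15:63048707 had 350, 551 and 412 and 423, 396 and 448 reads. The usage of the latter fell from 91.9% ± 1.85 to 47.8% ± 2.35. Downstream, the junction chr15:63062645-63071088 rose from 24.6%, 40.9% and 26.6% to 67.5%, 59.4% and 62.4% of its choice. At the gene level TPM1 rose by 0.72 in junction reads, as given above. TENM1, also among the largest rises, shifted from 45.7% ± 7.42 to 5.76% ± 3.41 use of the junction chrX:124503703-124513106, whose 20, 13 and 24 reads in WT compare with 14, 4 and 7 in homozygous libraries. The other donor of that choice had 20, 22 and 24 reads in WT and 131, 116 and 156 reads in homozygous libraries. In CAMK2B, a synaptic kinase, the junction chr7:44284225-44290258 went from 39.9% ± 12.4 to 9.95% ± 3.51. It had only 10, 19 and 13 reads in WT and 9, 8 and 7 reads in homozygous libraries. The junction chr7:44284225-44325355 of that choice had 19, 36 and 7 reads and 46, 50 and 89 reads. TRAK1, an adaptor of mitochondrial transport, changed from 51.1% ± 1.31 to 31.3% ± 6.24.

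Composite events held the largest usage change. In INPP5F, a phosphoinositide phosphatase, the junction chr10:119819539-119820844 had 1172, 1907 and 1453 reads in WT and 2, 2 and 6 reads in homozygous libraries. The junction from chr10:119811955 to the same acceptor had 241, 312 and 216 reads and 358, 348 and 372 reads. Usage of the first fell from 85.3% ± 2.13 to 0.905% ± 0.59 (limma adjusted p = 0.0059). In HNRNPA1 the junction chr12:54283234-54283810 fell from 98.5% ± 0.09 to 14.3% ± 0.51 of its choice, with 6710, 10313 and 6246 reads in WT and 4119, 3390 and 4294 in homozygous libraries. The longer junction from the same donor, chr12:54283234-54284256, had 106, 141 and 97 reads in WT and 25086, 20809 and 24452 reads in homozygous libraries. HNRNPA1 is the substituted gene, so a change of its DNA or of read alignment at this locus cannot be told apart from altered splicing. TYSND1, a peroxisomal protease, went from 88.4%, 89.0% and 80.2% to 8.82%, 7.69% and 15.1%.

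PTPRU, a receptor tyrosine phosphatase, moved from the junction chr1:29284869-29289681 toward a longer one. The shorter junction had 144, 260 and 221 reads in WT and 162, 105 and 176 reads in homozygous libraries, and the longer junction to chr1:29291867 had 36, 68 and 50 and 326, 260 and 356 reads. The share of the first fell from 80.3% ± 1.17 to 31.7% ± 2.53 (limma adjusted p = 0.019). In APP, the amyloid precursor gene, the long junction chr21:25997416-26021838 fell from 34.0%, 35.0% and 33.4% to 20.6%, 19.4% and 18.3%, in favour of the shorter junction that ends at 26000013. BIN1, a membrane-bending adaptor, rose from 56.5% ± 2.66 to 75.1% ± 1.67, and PICALM, a clathrin adaptor, fell from 89.1% ± 2.89 to 76.5% ± 3.42. These 3 genes, linked to Alzheimer disease, were the changed ones of 11 listed from the APP and secretase list, and with limma their adjusted p was 0.17, 0.17 and 0.20. ELAVL4, a neuronal RNA-binding protein, rose by 10.2 points in a choice of 10 junctions (limma adjusted p = 0.26). Further changed events in named lists were HOMER2 (21.7% to 51.8%), DYNC1I1 (88.3% to 61.5%) and CTTN (78.4% to 97.8%), and the largest remaining ones were S100A13 (62.5% to 14.4%) and DNASE1L1, at 6 to 33 reads in WT libraries (52.0% to 2.9%). No changed event was found in 11 other hnRNP, 14 SR and core spliceosome, 16 stress granule or 28 growth cone genes with a listed event. Over all genes with a listed event the share was 5.62%, so 0 in lists of this size is not read as a result about these genes. Of 10 known hnRNPA1 splicing targets listed, TPM1 changed, and so did HNRNPA1, with the limit given above for its locus.

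**Figure D4:**
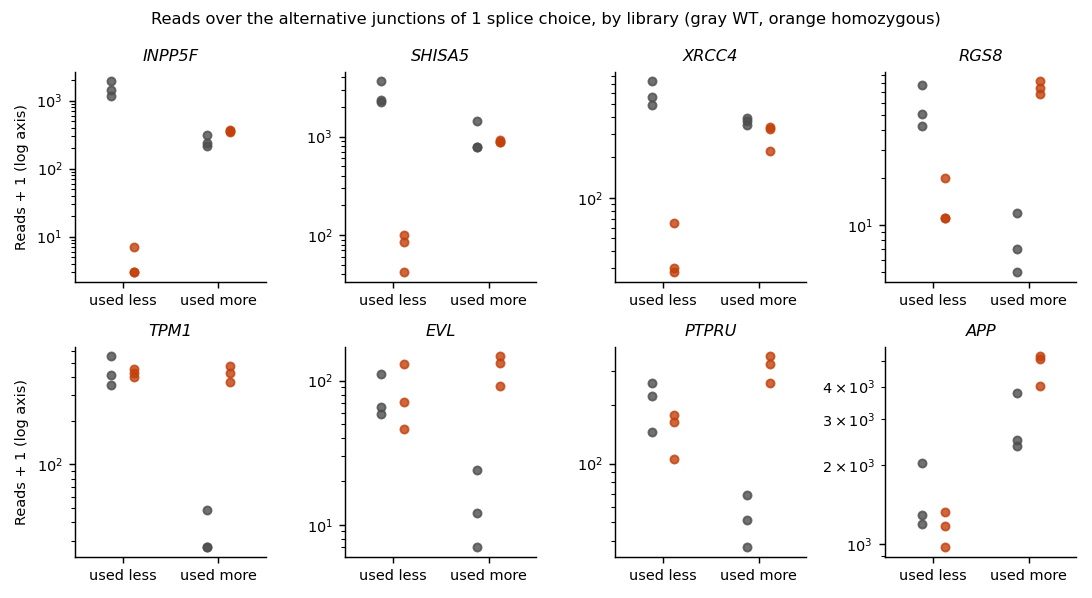
Reads (plus 1, log scale) over the junction used less and the junction used more in homozygous cells, within 1 splice choice of each of 8 genes, with a point per WT (gray) and homozygous (orange) library. In INPP5F, SHISA5 and XRCC4 the reads of the first junction drop while those of the other stay near the WT range, and in TPM1, EVL and PTPRU the reads of the other junction rise.

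Cassette exons changed in both directions and were short more often than the listed exons. Mean inclusion was lower in homozygous cells for 19 of 35 changed exons and higher for 16, against 506 and 501 over the 1007 listed. Exons of at most 50 nt made up 10 of 35 (28.6%) against 135 of 1007 (13.4%), and lengths that keep the reading frame 20 of 35 (57.1%) against 498 of 1007 (49.5%). No test was made of these shares.

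The changed exon with the largest fall in inclusion was in LAYN, a hyaluronan receptor, a 24 nt exon at chr11:111541561-111541584. It was included at 64.0%, 64.7% and 62.4% in WT and 22.1%, 32.9% and 22.6% in homozygous libraries. CALD1, caldesmon, an actin-binding protein, included a 115 nt exon at 58.3% ± 5.22 and 28.4% ± 3.21. FLNA, filamin A, which crosslinks actin, included a 57 nt exon at 65.9%, 58.0% and 56.9% and at 38.4%, 41.4% and 36.7%. KIF1C, a kinesin, included a 23 nt exon at 82.3%, 83.3% and 81.4% and at 63.8%, 70.5% and 62.8%. The groups were apart in these 4 exons, all lower in homozygous cells.

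RAI14, an actin-linked protein, went from 98.0% ± 1.73 to 75.5% ± 7.85 for an 87 nt exon, AXIN2, a Wnt pathway scaffold, from 62.9% to 31.9% (195 nt), COL11A1 from 44.6% to 17.7% (16 nt) and SCAI from 39.8% to 17.1% (69 nt). ZNF628 went from 42.4% to 17.4% (84 nt), with its highest homozygous inclusion, 34.1%, just under the lowest WT value of 34.9%. Higher inclusion was seen in PLA2G6, a phospholipase linked to neurodegeneration, whose 162 nt exon went from 4.55%, 7.87% and 11.5% to 27.6%, 37.7% and 39.7%. MCM9, a replication helicase, went from 50.9% to 84.7% (146 nt), IFFO2 from 45.8% to 79.8% (141 nt), SLC10A7 from 75.2% to 98.4% (39 nt) and LOC440600 from 23.8% to 59.5% (113 nt). SMARCC2, a BAF subunit, went from 60.9%, 54.3% and 49.7% to 70.3%, 75.5% and 72.9% for a 66 nt exon. With limma, LAYN (adjusted p = 0.043), PLA2G6 (0.037), MCM9 (0.045) and RAI14 (0.043) stayed under 0.05 among those named here, and CALD1 (0.060), FLNA (0.085), KIF1C (0.084) and SMARCC2 (0.085) did not.

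**Figure D5:**
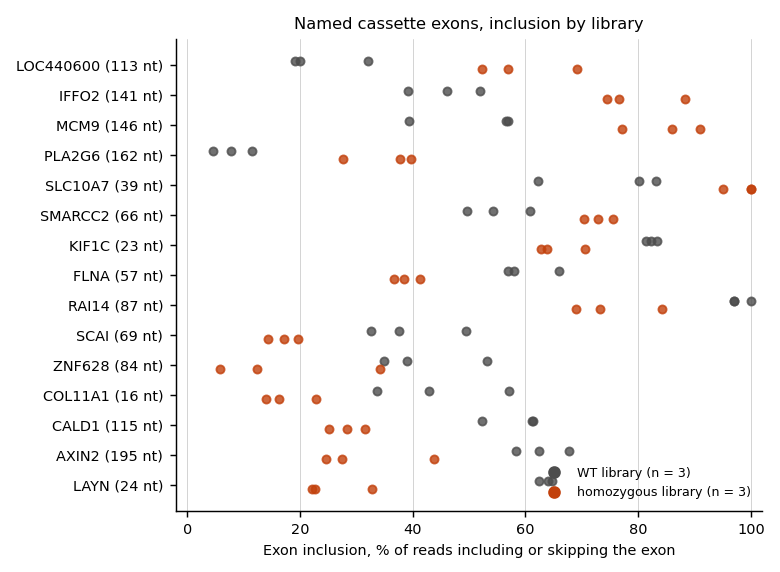
Inclusion of the named cassette exons (x axis, % of reads that include or skip the exon) with a point for each WT (gray) and homozygous (orange) library, and exon lengths in brackets. Exons of LOC440600, IFFO2, MCM9, PLA2G6, SLC10A7 and SMARCC2 lie higher in homozygous libraries and the other 9 lower, with ZNF628 nearly touching.

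Among alternative 3′ splice sites, TPM1 had the largest change (32.4 points, given above). HNRNPA1 went from 95.1% ± 4.26 to 68.6% ± 4.80 at chr12:54283907-54284572, with the limit given above for its locus. FDPS, a farnesyl diphosphate synthase of the sterol pathway, used the junction chr1:155315442-155316016 at 100% in each WT library and at 79.6%, 60.7% and 88.9% in homozygous libraries. ATM, a DNA damage kinase, went from 98.4% ± 2.75 to 77.2% ± 6.65 at a site 22 nt from its alternative.

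Changed introns included more that gained than lost retention. Among introns of 70 nt or longer, 57 changed, 35 toward more retention and 22 toward less, against 673 and 617 among those listed. Another 8 changed introns were shorter than 70 nt, below the length of most human introns, and are not described further. Retention is the share of reads across an exon-intron boundary. In GCFC2, which encodes a splicing-linked protein, spliced reads of the intron chr2:75670284-75671948 were 112, 107 and 106 in WT and 1, 5 and 2 in homozygous libraries, and boundary reads 28, 55 and 40 and 69, 40 and 41. Retention there went from 27.1% ± 6.98 to 94.3% ± 4.93 (limma adjusted p = 0.017). FABP3, a fatty acid carrier, had 336, 417 and 267 spliced reads over chr1:31365939-31367391 in WT and 26, 48 and 34 in homozygous libraries, while boundary reads were 41, 120 and 68 and 128, 119 and 160. A neighbouring FABP3 intron, chr1:31367494-31369383, went from 4.65% to 49.4% retention.

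PDE6B, a phosphodiesterase of photoreceptors, had 4 changed introns, all more retained, the largest change from 40.5% ± 5.23 to 78.5% ± 12.5. S100A13, a calcium-binding protein, went from 28.0% ± 4.33 to 80.5% ± 8.14, and an HNRNPA1 intron, chr12:54283967-54284238, from 29.8% ± 10.1 to 90.1% ± 1.76. The limit given above for the HNRNPA1 locus holds for this intron too. AMPD2, an AMP deaminase, moved the other way, from 54.5%, 50.9% and 70.4% to 18.4%, 17.9% and 13.1%, with spliced reads of 20, 54 and 16 in WT and 217, 188 and 252 in homozygous libraries.

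The share of genes with changed splicing that passed the test of level by gene counts was close to the share over all genes. Of 268 such genes tested, 10 rose and 8 fell (6.72%), beside 6.08% over all 16833 genes, most of which have no listed splicing event. Among the 4499 genes tested by both measures, 230 passed by gene counts. By junction reads, which themselves move with splicing, 55 of 286 rose and 54 fell (38.1%), beside 32.7%. Clusters of hnRNPA1 contact with RNA, mapped by crosslinking in WT SH-SY5Y cells whose differentiation state the labels do not give, lay within 250 nt of 4 of 35 changed cassette exons (11.4%), in IRAK1BP1, MYO9A, NAGLU and RAB3IP, and of 240 of 972 listed exons that did not change (24.7%). No test was made of this difference.

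Heterozygous D262V cells, measured against the same WT libraries, can be set beside these events but are no independent check. The heterozygous table lists only events already selected by the authors' unadjusted p for that comparison. Of the 296 changed events other than retained introns, 172 were listed there with enough reads. Of these 172, 117 moved the same way by at least 10 points with groups apart, and 3 moved the opposite way. These are counts among selected events and give no rate of agreement, and unlisted events could not be compared. INPP5F usage was 1.64% in heterozygous cells, RGS8 11.2% and TPM1 47.6% for its 5′ choice, close to the homozygous values of 0.905%, 14.6% and 47.8%. The 3 opposite events were BIN1, at 45.1% in heterozygous and 75.1% in homozygous cells, HAPLN3 (47.3% and 81.9%) and NSUN5P1 (33.3% and 64.7%).

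Undifferentiated cells of both genotypes, which have WT libraries of their own, listed 20 of the 296 events with enough reads. Here too, only events already selected by the authors' unadjusted p for that comparison were listed, so unlisted events could not be compared. Of the 20 listed, 6 moved the same way by at least 10 points with groups apart, which gives no rate of agreement. SHISA5 usage was 42.6% in undifferentiated WT and 2.84% in undifferentiated homozygous cells. The TPM1 3′ choice had 69.6% and 89.1%, and ASPH, whose protein hydroxylates EGF domains, 85.5% and 66.6%, beside 76.3% and 52.7% in differentiated cells. RMDN2, DOCK11 and SFT2D1 made up the rest, and CMTR1 moved the opposite way.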

How the data were processed

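RNA-seq libraries of differentiated SH-SY5Y cells were used, 3 homozygous D262V and 3 WT, grouped by their labels, with 3 heterozygous libraries in the gene-count fit. Alignment to hg38 and the tools STAR 2.5.3a, Cufflinks, HTSeq and DESeq2 appear in the submitters' processing notes. No source used here gives the strand setting of the counting. Gene counts were deposited as whole reads for each gene symbol, and rows naming no gene (92.2% to 92.6% of reads without a gene feature) were left out. The authors' deposited splicing tables give junction read counts, usage as a percent, a p-value and its Benjamini-Hochberg adjusted p-value per junction. Usage was recomputed from the reads. The score of the authors' deposited irCLIP clusters was not used, only their positions.

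Junction reads were summed per gene, each distinct junction once, without retained introns. Both measures were tested with edgeR 4.0.16 (R 4.3.3) (TMM scaling, default low-count filter, quasi-likelihood test), with p-values adjusted over all genes tested by Benjamini-Hochberg at 0.05. Gene counts were fitted over the 9 differentiated libraries, junction reads over 6. Scripts were tested on simulated data. Alternatives were RLE scaling, DESeq2 1.42.0, no filter, a replicate block, each library left out, the most-read junction, composite events left out, the 6 libraries alone, and for splicing limma 3.58.1 on log2 odds (reads plus 0.5), 20 points and 50 reads.

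Named genes are HNRNPA1, the 12 top rises and 12 top falls among protein-coding genes past 0.05 in both measures with mean log2 CPM over 1, ranked by the smaller change, list members past both (or up to 4 by junction reads) and up to 4 with opposite signs. Named events are the 12 cassette exons and 6 events of each other class with the largest change, and changed events of selected lists. Members that make up a small count were named after their values were seen. The gene set, lists and rules were chosen with earlier results of these data known. Values of some list members are not reported here.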

Additional observations from a re-analysis of the deposited data

Results flagged for a closer look

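A cassette exon choice changed in opposite directions in differentiated and undifferentiated cells with all libraries apart. In CMTR1, an RNA cap methyltransferase, the usage of a junction into the exon went from 80.7% in WT to 92.4% in homozygous differentiated cells. In undifferentiated cells it was 98.0%, 100% and 100% in WT and 91.2%, 85.8% and 81.2% in homozygous libraries, a difference of -13.26 percentage points. The undifferentiated choice rested on 61 to 196 reads per WT library and 213 to 272 per homozygous library. The difference between the states was not tested.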

How the results depend on the processing

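By junction reads, the number of genes past the threshold was 701 with composite events left out, where fewer genes could be tested, and within 1.5 times 1657 under every other setting (1199 to 1935 with a library left out). By gene counts it was 1832 with the 6 libraries alone, and 575 to 783 with a library left out. Both measures with the same sign gave 225 with the 6 libraries alone, 70 with composite events left out and 79 to 112 with a library left out. Requiring 20 points left 48 alternative 5′ sites, 8 alternative 3′ sites, 13 cassette exons, 61 composite events and 37 introns, and 50 reads left 9 alternative 3′ sites and 40 introns. With limma, 46 alternative 5′ sites, 4 alternative 3′ sites, 7 cassette exons, 10 composite events and 71 introns passed, the last with 51 in common with the authors' test. Log2 changes that reversed were CELF3 (0.16 with composite events left out) and CNTN1 (-0.42), MYO5A (-0.58) and PBRM1 (-0.098) by the most-read junction, and the cause was not tested. Of 125 named genes called by junction reads, 25 lost the call under at least 1 alternative, and 26 of 57 called by gene counts did.

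Same-numbered libraries did not deviate together (correlations -0.046 to 0.116 by junction reads), so the numbers were not taken as pairs. A replicate block gave 1628 genes by junction reads, 923 by gene counts and 124 by both, and 0 events in every splicing class with limma.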
